A study of Rattus norvegicus with 6 samples.

Results

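The ductular reaction is the spread of small bile duct-like cells that appears in a liver whose bile flow is blocked. It was followed here through 8 genes named as its markers or as markers of liver progenitor cells: Spp1, Sox9, Sox4, Epcam, Prom1, Cd24, Elf3 and Ggt1. A probe was taken for a gene when the RefSeq accession in the array files belonged to that rat gene. This gave 8 probes for 7 of the 8 genes, of 30367 probes and 15443 named genes in all. Prom1 had 2 probes and each of the other 6 genes had 1. No probe carried an accession of Sox9, the duct transcription factor, so Sox9 was not analysed here.

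Total RNA came from liver tissue blocks of 6 rats, with 1 array (Cy3, Agilent) per animal. The fibrosis group was 3 rats with hepatic fibrosis induced by bile duct ligation (BDL), in which the common bile duct is tied off, and the normal group was 3 rats with normal livers. The strain, sex and age of the animals, the days after ligation and whether the normal rats had a sham operation are not given in the sources used here. The comparison asks how expression in fibrotic liver differed from that in normal liver.

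In the healthy liver, cholangiocytes line the bile ducts and hepatocytes make the bile. After ligation the ducts multiply and branch into the tissue, and the new duct cells carry surface and secreted proteins that hepatocytes make little of. Some of the same proteins mark progenitor or oval cells, which in rodents can form both lineages, so these markers do not separate ducts from progenitors. In RNA from whole tissue, more cells of a type and more RNA per cell cannot be told apart.

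All 7 measured genes were higher in fibrotic than in normal livers, by between 5.55-fold (Epcam) and 33.0-fold (Spp1) with all spots of a probe kept. All 8 probes passed the test, where 12.4% of the 19731 probes tested rose and 6.79% fell. The groups did not overlap for any of the 8 probes, which was so for a rise in 19.1% of all probes tested. Each of the 8 probes was well above background on all 6 arrays, so none entered the test through the fibrotic livers alone. Values below are log2 of the processed signal over the array's 75th percentile, called signal values, and differences are fibrosis minus normal on the log2 scale with the standard error of limma. The test was passed at an adjusted p under 0.05, with the adjustment made over all probes tested.

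The scanner software marked many spots as non-uniform or as outliers. Of 69 spots of these probes in each group, 47 were marked on the fibrosis arrays and 9 on the normal arrays. The Spp1 probe, with 30 of the 69 spots, gave 28 of the 47 and 1 of the 9. Over all spots of an array, 18.75% to 32.96% were marked on the fibrosis arrays and 24.01% to 35.18% on the normal arrays. The fibrosis arrays as a whole were therefore not marked more often. With marked spots left out, 4 of the 8 probes had enough arrays for the test (Spp1, Cd24, Elf3 and the dimmer Prom1 probe), and all 4 rose, where 15.2% of the 12620 probes tested in that way rose and 4.83% fell. The other 4 probes could be tested only with all spots kept. Where a probe had marked and unmarked spots on the same array, which happened 8 times, marked minus unmarked ran from -0.29 to 0.25.

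The annotated upstream sequences of these genes are shown because the genes moved together, and the 4 chosen differ in base composition and in the motifs they hold. Each line gives the 250 bases before the annotated start of transcription, 5′ to 3′ on the strand of the gene, from the RefSeq table of the GRCr8 build. Capitals mark matches, on either strand, to the TATA box (TATAAA), the AP-1 site (TGANTCA), the TEAD site (GGAATG), the ETS core (GGAAGT), the SOX core (AACAAT), the GC box (GGGCGG), an HNF1 core (GTTAAT) and the CCAAT box (CCAAT). No 2 different motifs overlapped in the sequences shown.
Spp1, chr14:5619805-5620054, minus strand: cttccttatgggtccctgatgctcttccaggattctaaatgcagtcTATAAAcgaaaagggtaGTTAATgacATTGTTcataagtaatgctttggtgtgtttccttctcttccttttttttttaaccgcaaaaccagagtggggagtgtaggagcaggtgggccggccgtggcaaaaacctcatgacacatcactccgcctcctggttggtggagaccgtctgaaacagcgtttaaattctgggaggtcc
Elf3, chr13:49247087-49247336, minus strand: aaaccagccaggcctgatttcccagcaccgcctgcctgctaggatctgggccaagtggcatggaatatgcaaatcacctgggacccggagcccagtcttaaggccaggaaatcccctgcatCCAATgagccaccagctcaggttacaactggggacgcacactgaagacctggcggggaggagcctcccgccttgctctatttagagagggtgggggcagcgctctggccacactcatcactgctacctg
Epcam, chr6:12649679-12649928, minus strand: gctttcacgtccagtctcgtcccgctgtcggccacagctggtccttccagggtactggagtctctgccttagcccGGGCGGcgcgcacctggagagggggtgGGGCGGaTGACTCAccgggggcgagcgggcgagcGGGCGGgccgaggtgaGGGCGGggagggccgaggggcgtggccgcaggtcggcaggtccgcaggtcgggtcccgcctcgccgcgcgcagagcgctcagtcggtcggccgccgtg
Cd24, chr20:48656227-48656476, plus strand: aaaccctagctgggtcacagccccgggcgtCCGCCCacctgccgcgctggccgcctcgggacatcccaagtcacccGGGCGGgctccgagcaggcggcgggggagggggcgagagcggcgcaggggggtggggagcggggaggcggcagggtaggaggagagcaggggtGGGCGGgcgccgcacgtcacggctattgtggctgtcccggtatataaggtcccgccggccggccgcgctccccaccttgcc

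The table held 7 such windows for 6 of the 8 genes. It listed no window for Sox4 or Sox9. Guanine and cytosine made up 75.6% of the bases upstream of Epcam and of Cd24, 59.6% for Elf3 and 46.8% for Spp1, with a median of 51.2% over all 33469 windows. Epcam, Cd24 and 1 of the 2 Prom1 windows held a GC box, which 30.47% of all windows held. An AP-1 site was found upstream of Epcam and in the other Prom1 window, and in 6.34% of all windows. The SOX core was found upstream of Spp1 only, and in 10.33% of all windows. The ETS core, the kind of site that Elf3 and its relatives bind, was found in none of the 7 windows and in 19.22% of all windows. No motif searched was found upstream of more than 3 of the genes. A match is a run of letters and was not tested as a site.

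Of the 2 transcription factors measured, Sox4 belongs to the SOX family and in mouse embryos acts together with Sox9 in forming bile ducts. Its signal value was 1.68, 2.31 and 2.02 on fibrosis arrays 1, 2 and 3, against -0.48, -1.30 and -1.45 on normal arrays 1, 2 and 3. The lowest fibrotic liver stood 2.17 above the highest normal liver. Sox4 rose by 3.08 ± 0.33 (adjusted p = 0.000515), a fold of 8.47 with a 95% interval of 5.05 to 14.2. This value rests on all spots, since 5 of its 6 spots on the fibrosis arrays were marked.

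Elf3 is an ETS family factor found mainly in epithelial cells. It had signal values of -0.93, -0.63 and -0.95 on fibrosis arrays 1, 2 and 3, against -3.44, -3.52 and -4.11 on normal arrays 1, 2 and 3. The fibrotic livers lay within 0.32 of each other, the narrowest range among the 7 genes in fibrosis. Elf3 rose by 2.85 ± 0.27 (adjusted p = 0.000299), a fold of 7.23 with a 95% interval of 4.67 to 11.2. None of its spots was marked on any array, so its values were the same with marked spots left out.

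The surface proteins did not all follow 1 pattern. Epcam, the epithelial cell adhesion molecule, had signal values of 1.49, 0.94 and -0.54 on fibrosis arrays 1, 2 and 3, against -2.15, -1.44 and -1.95 on normal arrays 1, 2 and 3. Fibrosis array 3 was the low one, 0.89 above the highest normal liver, and the fibrotic livers spanned 2.03. Epcam rose by 2.47 ± 0.50 (adjusted p = 0.0109), a fold of 5.55 with a 95% interval of 2.51 to 12.2, the widest on the log2 scale among the 7 genes with all spots kept. Without fibrosis array 3 the rise was 3.06 ± 0.31 (adjusted p = 0.00112). Epcam has 1 spot per array, and that spot was marked on 4 of the 6 arrays but not on fibrosis array 3.

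Prom1 (CD133, a protein of membrane protrusions used as a stem and progenitor cell marker) was measured by 2 probes of the same accession. The brighter probe had signal values of 0.81, 1.50 and 0.37 on fibrosis arrays 1, 2 and 3, against -2.15, -1.91 and -2.47 on normal arrays 1, 2 and 3. It rose by 3.07 ± 0.33 (adjusted p = 0.000604), or 8.38-fold. The other probe, with no marked spot, read 0.31, 1.08 and 0.03 in fibrosis, against -2.65, -2.28 and -2.99 in normal livers, and rose by 3.11 ± 0.34 (adjusted p = 0.000537 with marked spots left out). Both probes ordered the 3 fibrotic livers in the same way.

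Cd24, a small glycosylated surface protein of epithelial cells and of several blood cells, had signal values of 2.58, 3.01 and 2.22 on fibrosis arrays 1, 2 and 3, against -0.59, -0.55 and -0.96 on normal arrays 1, 2 and 3. The 2 groups were 2.78 apart at their nearest. Cd24 rose by 3.51 ± 0.34 (adjusted p = 0.00104) with marked spots left out, which leaves 2 arrays in each group, a fold of 11.4 with a 95% interval of 6.44 to 20.3. With all spots kept it rose by 3.30 ± 0.28 (adjusted p = 0.000184), or 9.86-fold.

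Spp1 encodes osteopontin, a secreted glycoprotein that binds integrins and CD44 and is made by duct cells and by activated macrophages. Its probe is printed 10 times on each array. The signal value was 0.02, 0.60 and 0.76 on fibrosis arrays 1, 2 and 3, against -5.47, -4.06 and -4.22 on normal arrays 1, 2 and 3. The normal livers spanned 1.41, with array 1 the lowest, while the 10 spots within an array had an SD of 0.13 to 0.30. Spp1 rose by 4.81 ± 0.50 (adjusted p = 0.000710) with marked spots left out, a fold of 28.1 with a 95% interval of 12.5 to 63.2. Only 1 unmarked spot was left on each of fibrosis arrays 1 and 2 and none on array 3. With all spots kept the rise was 5.05 ± 0.41 (adjusted p = 0.000147), or 33.0-fold, and 0.324% of all probes tested had a larger rise.

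Ggt1 encodes gamma-glutamyltransferase 1, a membrane enzyme that starts the breakdown of glutathione outside the cell and whose activity in blood is a clinical sign of blocked bile flow. It is plentiful in fetal rat liver and in duct cells and low in adult hepatocytes. Its signal value was -0.06, 0.48 and 0.81 on fibrosis arrays 1, 2 and 3, against -2.76, -3.11 and -3.82 on normal arrays 1, 2 and 3. Fibrosis array 3, the lowest for Epcam, was the highest for Ggt1. Ggt1 rose by 3.64 ± 0.35 (adjusted p = 0.000338), a fold of 12.5 with a 95% interval of 7.13 to 21.9, with all spots kept.

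**Figure D1:**
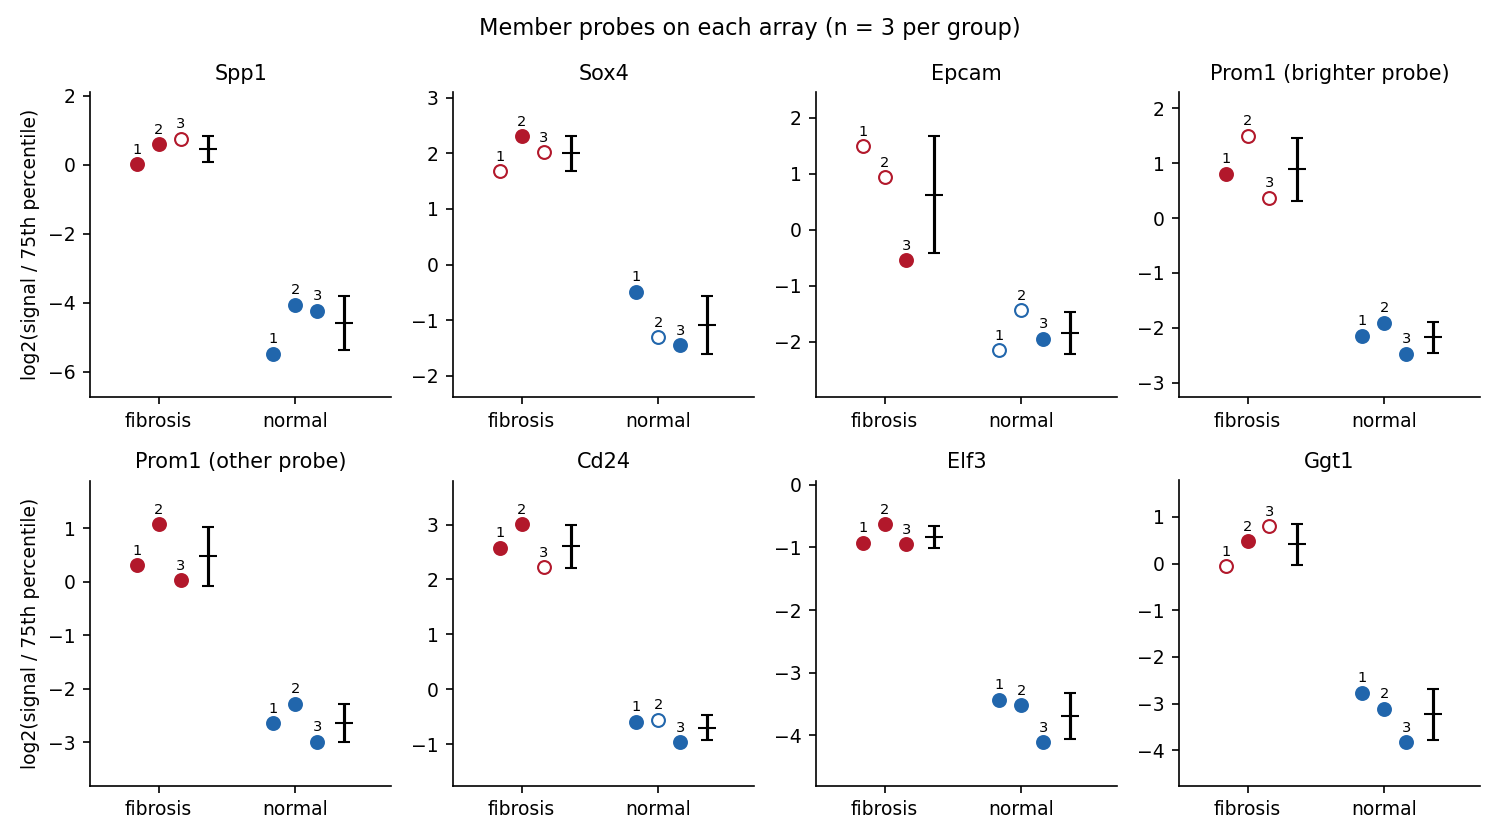
Signal value (log2 of the processed signal over the array's 75th percentile, all spots, y axis) of each probe on fibrosis arrays (left, red) and normal arrays (right, blue), with the array number above each point. Open points are arrays where every spot of the probe was marked, and black bars give the mean ± SD of 3 arrays. The fibrotic livers lie above the normal livers in all 8 panels, nearest for Epcam on fibrosis array 3, at -0.54 against -1.44 on normal array 2.

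The 95% intervals of the 7 genes overlapped except that the interval of Spp1 (4.11 to 5.99 with all spots kept) lay above those of Elf3 (2.23 to 3.47), Sox4 (2.34 to 3.83), the 2 Prom1 probes (2.30 to 3.84 and 2.34 to 3.89), Cd24 (2.66 to 3.95) and Epcam (1.33 to 3.61). The interval of Ggt1 reached up to 4.45. The differences between genes were not tested.

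**Figure D2:**
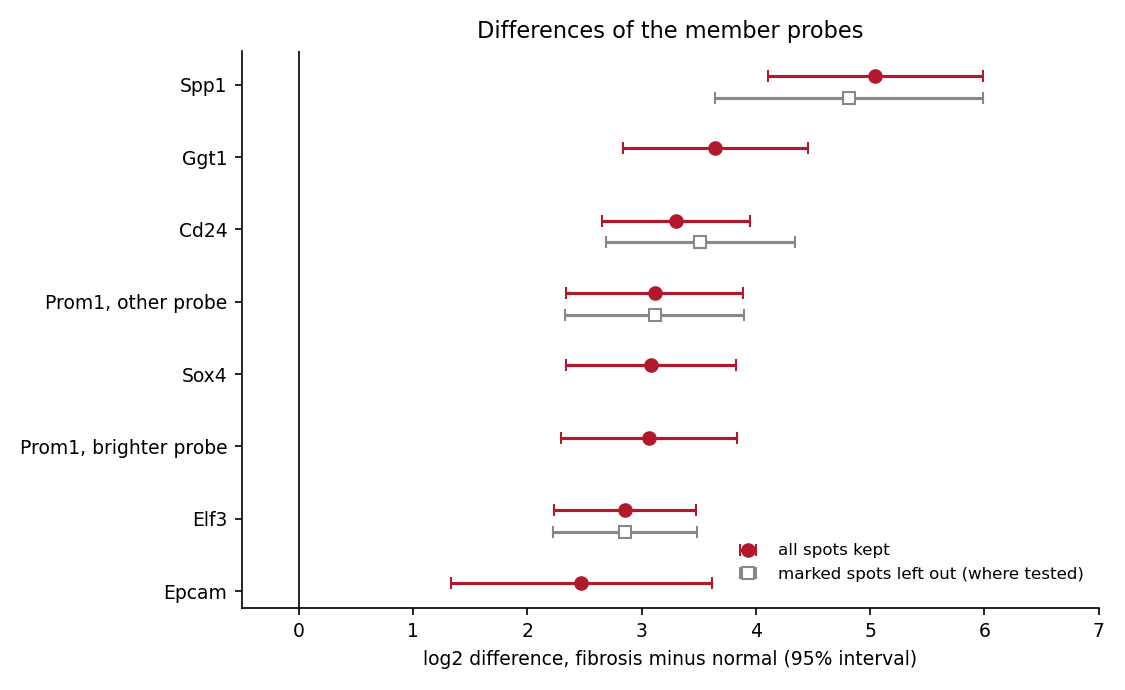
Difference of each probe, fibrosis minus normal (x axis, log2), with its 95% interval from limma. Filled red circles keep all spots and open grey squares leave out marked spots, drawn for the 4 probes that could be tested so. Every interval lies above 0, from Epcam at 2.47 to Spp1 at 5.05.

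The fibrotic livers differed from each other, and the 7 genes did not put them in the same order. Fibrosis array 2 was the highest of the 3 for Sox4, Prom1, Cd24 and Elf3, fibrosis array 3 for Spp1 and Ggt1, and fibrosis array 1 for Epcam. The SD among fibrotic livers was larger than that among normal livers for 3 of the 7 genes, at 1.05 against 0.37 for Epcam, 0.57 against 0.28 for Prom1 and 0.39 against 0.23 for Cd24. When each gene was centred on its mean over the 6 arrays, Prom1 and Cd24 were nearest, with a root mean square difference of 0.17. Spp1 and Epcam were farthest apart, at 1.55. These distances are a description over 6 arrays that share the 2 groups.

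**Figure D3:**
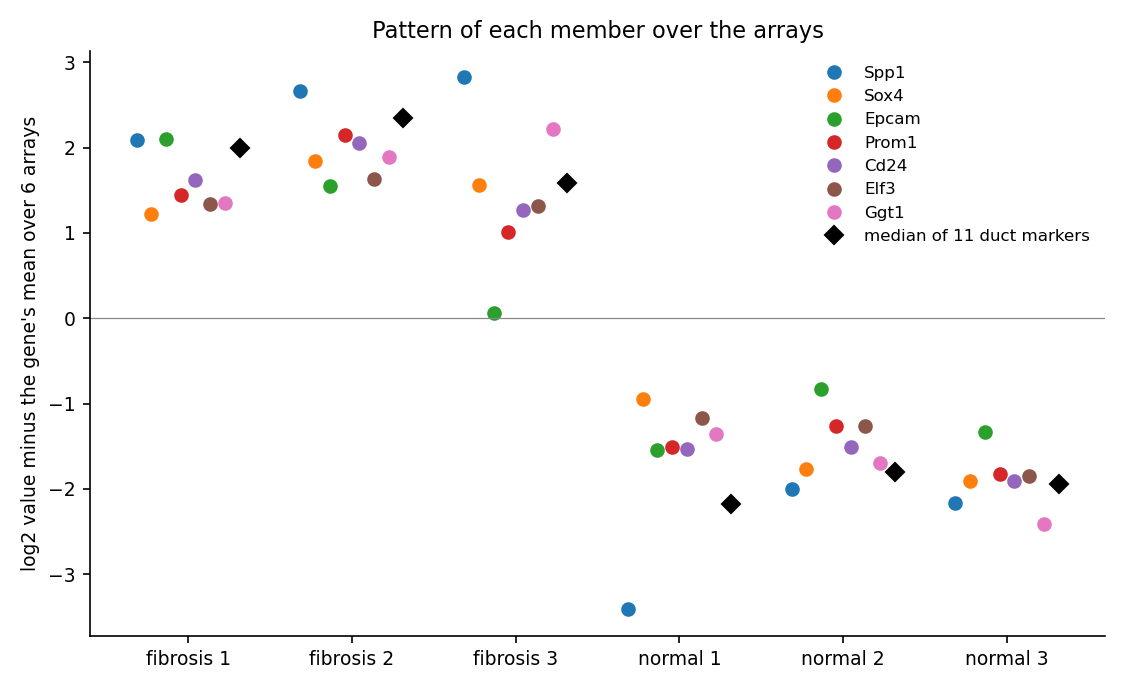
Signal value of each of the 7 genes minus its own mean over the 6 arrays (y axis, log2), by array (x axis), with black diamonds for the median of 11 cholangiocyte markers centred in the same way. Points are spread sideways for legibility, and the order of arrays within a group has no meaning. All 7 genes lie above 0 on the fibrosis arrays and below 0 on the normal arrays, with Epcam on fibrosis array 3 just above 0.

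The genes whose pattern over the 6 arrays was nearest to each of the 7 were taken from 10857 other named genes. Spp1 was nearest to Gpr37l1, Ptgds (prostaglandin D2 synthase) and Slc41a3, at root mean square differences of 0.37, 0.38 and 0.42. Gpr37l1 and Slc41a3 were not well above background on any normal array and rose at least 20.3-fold and at least 21.2-fold with the 75th percentile scaling. Over the other scalings the difference was 2.52 to 5.59 for Gpr37l1 and 2.61 to 4.70 for Slc41a3, in both lowest with normexp. For these bounds each normal array was given its dimmest signal still well above background, or that of the probe where it was higher. Sox4 was nearest to S100a6 (a calcium-binding protein, 0.18), Ccnb1 (cyclin B1, 0.19) and Fam161a (0.21). Fam161a was not well above background on any normal array and rose at least 5.25-fold, with a difference of 1.0009 with normexp. Epcam was nearest to Lpl (lipoprotein lipase, 0.16), Emp1 (0.18) and Pdk3 (0.19). All 3 were also lowest among fibrotic livers on array 3, which choosing them by nearness to Epcam makes likely.

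Prom1 was nearest to Dkk3 (0.13), Abo (0.15) and Adamts15 (0.15), and Cd24 to Adamts15 (0.12), Bend5 (0.13) and Bok (0.13). Adamts15, a secreted metalloprotease, is the 1 gene named for more than 1 of them. Elf3 was nearest to Dennd2d (0.08), Ltbp3 (0.09) and Plaat5 (0.10), and Ggt1 to Kif12 (0.19), Rasal1 (0.20) and Col8a1 (a collagen, 0.22). The likeness is a description over 6 arrays that share the 2 groups.

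The name given to these genes was set against other markers, with all spots kept and 1 probe per gene. In this setting 14.7% of the 10864 named genes tested rose and 7.62% fell, with a median difference of -0.07. Unlike the 8 probes, some listed genes were above background on all arrays of 1 group only and entered the test through that group. This favours a call in its direction and enters the list counts and medians. Among the genes named below with a rise, these were Krt7, Krt23, Cdh6, Klf5, Ehf, Ggt7 and Msln. Of 14 listed markers of cholangiocytes, 11 had a probe and were tested, and 9 rose and 0 fell, with a median of 4.43. The keratin Krt7 rose by 5.65 ± 0.53 (adjusted p = 0.000306) and was above background on only 1 normal array, and the secretin receptor Sctr by 5.47 ± 0.44 (adjusted p = 0.000146). The summed signal of the 11 markers, relative to the 75th percentile, was 9.0 to 13.5 on the fibrosis arrays, against 1.35 to 1.62 on the normal arrays. The anion exchanger Slc4a2, at -0.40 ± 0.29 (adjusted p = 0.394), was among those that did not pass.

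Of 18 other genes used to mark ductular reactions, oval cells or progenitors, 16 had a probe and 10 were tested, of which 7 rose and 0 fell, at a median of 2.96. Those with the largest rise, Krt7 and the claudin Cldn7 (5.26 ± 0.39, adjusted p = 0.000112), are markers of duct epithelium that also stood in the cholangiocyte list. The others that rose were Krt19, the keratin Krt23 (2.43 ± 0.52, adjusted p = 0.0141), the adhesion molecule Ncam1 (4.31 ± 0.38, adjusted p = 0.000223), the receptor Tnfrsf12a (2.41 ± 0.26, adjusted p = 0.000570) and the cadherin Cdh6 (adjusted p = 0.000986), which was not above background on any normal array. These were named after their values were seen. Of the genes that rose, Krt7, Krt23 and Cdh6 entered the test through the fibrotic livers alone. With marked spots left out, 3 of the 5 genes tested rose. Afp (alpha-fetoprotein) had a signal value of 0.15 ± 0.21 in fibrosis and 0.28 ± 0.27 in normal livers (SD, n = 3 each), a difference of -0.13 ± 0.25 (adjusted p = 0.772). Of the genes not tested, Lgr5 and Cd34 were not well above background on any array. Dlk1 and Kit were above background on 1 fibrosis array each and Thy1 on 2, and on no normal array.

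Of the 7 genes, only Spp1 had a difference above the cholangiocyte median of 4.43 with all spots kept. That median was the value of 1 Dcdc2 probe, and another Dcdc2 probe rose by 6.06 with marked spots left out. With marked spots left out, the median of the 7 cholangiocyte markers tested was 2.08. Spp1 (4.81), Cd24 (3.51), the dimmer Prom1 probe (3.11) and Elf3 (2.85), all that could be tested so, lay above it. The median of the 11 cholangiocyte markers on each array was -0.44 ± 0.38 in fibrosis and -4.39 ± 0.19 in normal livers (SD, n = 3 each), 3.95 apart. After this median was subtracted array by array, the difference of Spp1 was 1.097 with no overlap of the groups. Sox4, Epcam, Prom1, Cd24 and Elf3 then stood lower in fibrosis with no overlap, with differences from -0.65 for Cd24 to -1.48 for Epcam, and Ggt1 overlapped at -0.31. Any gene that rose by less than 3.95 comes out lower, so these directions follow from the differences already given. How many of all probes would not overlap after the subtraction was not counted. The median was the value of Cftr or Aqp1 on fibrosis arrays and of Tff3 or Dcdc2 on normal arrays, so it did not follow 1 gene. Among the 7 genes Cd24 followed this median most closely in the fibrotic livers, with an SD of 0.04 after subtraction, against 0.81 for Epcam. Krt19, a single duct keratin, rose by 3.49 ± 0.25, within the range of the 7 genes, so the order depends on which duct markers are used. These subtractions were added after the values had been seen and were not tested.

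The regulators that set duct or hepatocyte fate went both ways. Of 21 listed, 15 were tested, and 4 rose and 2 fell. The 4 became 2 without normal array 1, 2 or 3 or fibrosis array 2, and fewer with the slide row as a block. In that setting fibrosis array 1 alone is set against the normal arrays. The 2 became 1 without normal array 1 or 3 or fibrosis array 1 or 2, and 5 with array weights. The list had a median of 0.21 that was -0.15 with array median scaling and -0.05 with normexp. Klf5, a zinc finger factor of epithelia, rose by 4.21 ± 0.30 (adjusted p = 0.000105) and Grhl2, an epithelial junction regulator, by 1.84 ± 0.35 (adjusted p = 0.00883). Cebpa, a hepatocyte factor, changed by -1.89 ± 0.27 (adjusted p = 0.00222) and Tbx3 by -1.86 ± 0.46 (adjusted p = 0.0259, and 0.0769 with E1A scaling).

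The relatives of Sox4 and Elf3 moved less. Of the 7 other SOX genes tested, 0 passed with limma, and 1 had an unadjusted p under 0.05, Sox11 at -1.09 ± 0.33 (adjusted p = 0.0542). Their median was -0.49. Sox11 passed as lower with quantile normalization (adjusted p = 0.0338), array median scaling (0.0169), cyclic loess (0.0448) and normexp (0.0234), and the count that fell was 0 to 3 over 20 alternatives. Of 17 other ETS genes tested, 2 rose and 0 fell, at a median of 0.36. Ehf, an epithelial ETS factor close to Elf3, rose at least 3.90-fold (adjusted p = 0.00281), and was not above background on any normal array. Spdef, another epithelial one, rose by 1.29 ± 0.31 (adjusted p = 0.0237). With normexp the difference of Ehf was 0.72 (adjusted p = 0.0790). Spdef did not pass with quantile normalization (adjusted p = 0.115), array median scaling (0.0634), cyclic loess (0.0770) or normexp (0.0509). The 2 that rose became 1 without normal array 1, 2 or 3, 5 without fibrosis array 3 and 0 with normexp. Fewer also rose with the slide row as a block, which rests on fibrosis array 1 alone.

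Osteopontin binds cells through integrins and CD44. Of the 8 receptor genes with a probe, 4 rose and 0 fell, with a median of 0.99. The 4 became 7 with array weights and 2 with marked spots left out. Itgb6, the epithelial partner of the alpha v subunit, rose by 5.02 ± 0.34 (adjusted p = 8.38e-05) and Cd44 by 3.42 ± 0.27 (adjusted p = 0.000143). Of 9 genes that act beside Ggt1 in glutathione breakdown, 2 rose and 1 fell, at a median of -0.08 that was 0.22 with E1A scaling. Its relative Ggt7 rose by 1.96 ± 0.28 (adjusted p = 0.00212, and 0.0686 with normexp) and was above background on 1 normal array. The dipeptidase Dpep2 rose by 1.14 ± 0.30 (adjusted p = 0.0330), and Chac2, which cleaves glutathione inside the cell, changed by -1.33 ± 0.38 (adjusted p = 0.0430, and 0.219 with E1A scaling). Dpep2 did not pass with quantile normalization (adjusted p = 0.115), array median scaling (0.0919) or cyclic loess (0.0712). The 2 that rose became 1 without fibrosis array 3 or any 1 normal array, and fewer with the slide row as a block, which rests on fibrosis array 1 alone. The 1 that fell became 0 without normal array 2 or 3 or fibrosis array 2 or 3.

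Several of the 7 genes are also made by other cells, and markers of those cells moved as well. Of 11 macrophage markers, a possible source of Spp1, 3 rose and 0 fell (median 0.70), with Lgals3 at 1.80 ± 0.31 (adjusted p = 0.00555) and Trem2 at 1.60 ± 0.35 (adjusted p = 0.0158). The count that rose was 7 with array weights, and lower with the slide row as a block, which rests on fibrosis array 1 alone. Their summed signal was 28.0 to 32.1 in fibrosis, against 15.6 to 21.1 in normal livers, and all 11 were above background on every array. Of 11 markers of stellate cells and myofibroblasts, 6 rose and 0 fell (median 2.04), led by Col1a1 at 3.19 ± 0.64 (adjusted p = 0.0106) and Des at 3.01 ± 0.29 (adjusted p = 0.000314), and the sum over the 12 with a probe was 9.35 to 23.7, against 2.77 to 4.01. Fewer rose with the slide row as a block, which rests on fibrosis array 1 alone. Of 4 neutrophil markers tested, 3 rose (S100a8 by 2.98 ± 0.50, adjusted p = 0.00466), and the sum over the 9 with a probe was 0.77 to 3.08, against 0.21 to 0.37. In fibrosis this sum was mostly S100a8 and S100a9. The 3 that rose became 2 with quantile normalization, array median scaling, cyclic loess, E1A scaling or normexp, and 1 without normal array 1.

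Of 5 B cell markers, cells that carry Cd24, 1 rose and 1 fell. Fcrla rose by 1.41 ± 0.40 (adjusted p = 0.0417), and did not pass with quantile normalization (adjusted p = 0.0812), array median scaling (0.0794) or cyclic loess (0.0506). Each of these counts became 0 without normal array 1 or 2 or fibrosis array 1, and the higher one also without normal array 3 or fibrosis array 3. Without fibrosis array 3 the lower count became 2. The summed signal of the 6 B cell markers was 0.57 to 1.41 in fibrosis, against 0.43 to 0.53 in normal livers. In fibrosis this sum was mostly Fcrla, so it does not describe the list. Fcrla had a mean signal value of -0.61 in fibrosis and -2.02 in normal livers. No other B cell marker exceeded -3.07 on any array (Blk on fibrosis array 3). The mesothelial marker Msln rose by 7.98 ± 0.46 (adjusted p = 4.90e-05), above background on 1 normal array, while the other 2 mesothelial markers tested did not pass. Of 6 endothelial markers, 0 passed with limma and 1 had an unadjusted p under 0.05, Kdr at -0.75 ± 0.23 (adjusted p = 0.0575), which passed as lower with array median scaling and with normexp. The summed signal of the endothelial markers was 7.33 to 10.6 in fibrosis, against 11.8 to 12.7 in normal livers, with Kdr its largest part on every array. For the mesothelial markers it was 2.85 to 4.20 in fibrosis, against 0.46 to 0.54 in normal livers. In fibrosis the mesothelial sum was mostly Msln, while Gpm6a changed by -0.20 ± 0.35 and Wt1 by -0.51 ± 0.40. These sums therefore follow single genes more than their lists. Of 14 hepatocyte markers, 0 rose and 6 fell (median -0.84), led by Cyp2c11 at -7.25 ± 0.59 (adjusted p = 0.000148) and F9 at -1.64 ± 0.32 (adjusted p = 0.01, and 0.0661 with E1A scaling). The hepatocyte markers that fell numbered 2 with E1A scaling, 12 with array median scaling, 3 without normal array 2 and 2 without normal array 3. Their summed signal was 105 to 115 in fibrosis, against 187 to 212 in normal livers. The part of any of these cells in the rise of the 7 genes was not tested.

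**Figure D4:**
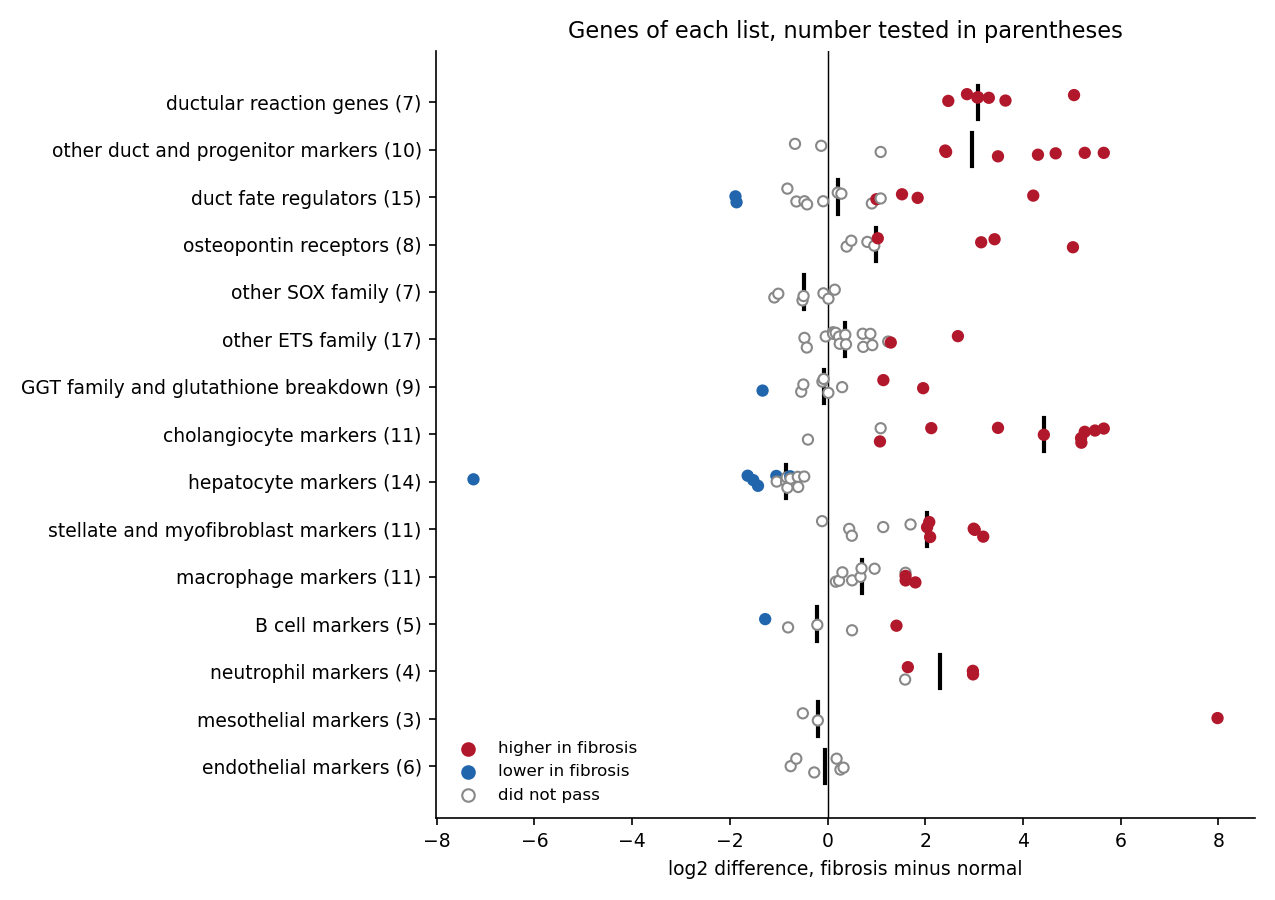
Difference of each gene, fibrosis minus normal (x axis, log2, all spots kept), by list (y axis, number of genes tested in parentheses). Red points rose, blue points fell and open points did not pass at an adjusted p under 0.05, and black bars are list medians. The 7 ductular reaction genes, at a median of 3.08, and the cholangiocyte markers, at 4.43, lie to the right of the other SOX genes at -0.49 and the hepatocyte markers at -0.84.

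The 6 arrays shared a slide and a scan. Fibrosis array 1 shared the first row of the slide with the 3 normal arrays, and fibrosis arrays 2 and 3 lay in the second row. The 75th percentile of the signal was 4840 to 6401 on the fibrosis arrays and 3755 to 4386 on the normal arrays, and 68.8% to 78.0% and 67.2% to 70.0% of spots were well above background. Of all probes tested with all spots kept, 2439 rose and 1339 fell. Quantile normalization gave 1905 and 1714, scaling by each array's median 1890 and 3884, cyclic loess 2223 and 1263, normexp 1913 and 1439, and E1A control spots 2837 and 363. The median difference over all probes was -0.10 as reported, and was -0.14, -0.45, -0.04, -0.13 and 0.20 under these in the order given. All 7 genes rose and passed under each of them, but the sizes moved. With marked spots left out, the rise of Spp1 was 4.24 with normexp, 4.42 with array median scaling and 5.14 with E1A scaling, against 4.81.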

How the data were processed

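Total RNA of 6 rat livers was hybridised to 6 Agilent arrays (3 fibrosis, 3 normal), 1 array per animal, per the labels. The deposited numbers are linear spot intensities from Agilent Feature Extraction 11.5.1.1, background-subtracted and detrended within each array, per the file headers, with no normalization between arrays recorded. Replicates were numbered in record order, so numbers pair nothing.

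Processed signals of 58717 spots per array, controls left out, were put on the log2 scale, each array's 75th percentile was subtracted, and spots of a probe were averaged. Accessions, without versions, were matched to the RefSeq table of GRCr8, which named 18355 of 30367 probes. A probe was tested if it had values on at least 2 arrays of each group and, on all arrays of at least 1 group, at least 0.5 of its spots well above background. Groups were compared with limma 3.58.1 in R 4.3.3 (lmFit, eBayes), probe by probe, with Benjamini-Hochberg adjustment over all tested probes. The fit was run with spots marked non-uniform or as population outliers left out, and with all spots kept. A gene was read from its brightest probe, by the mean of the 6 arrays. Precision is limited by the 6 arrays, and 0 spots were saturated. The fit was tested on simulated data.

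From each list, up to 2 called genes with the largest increase and 2 with the largest decrease were named, or, where none was called, the gene with the smallest p. For likeness, the 3 genes with the smallest root mean square difference were named. The 8 genes and the lists were chosen with earlier results of these data known. Alternatives were other scalings, background correction, filters, units of the fit, weights, the slide row as a block, a stricter threshold and leaving out each array. Values of some single genes in the lists are not reported here.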

Additional observations from a re-analysis of the deposited data

How the results depend on the processing

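Of 130 alternative values of the 7 gene differences, all were positive and 129 stayed on the same side of the threshold. The exception was Epcam at an adjusted p under 0.01 (2.47, adjusted p = 0.0109). Many of these differences could not change. In 3 (2 for Cd24, 1 for Spp1) the array left out had no unmarked spot. The stricter threshold, other filters, 1 probe per gene and other variance settings of limma leave every difference as it was. A mean of probes per gene could change it for Prom1 only. With all spots kept, leaving out 1 array at a time gave 4.603 to 5.31 for Spp1, 2.90 to 3.38 for Sox4, 2.04 to 3.06 for Epcam, 2.76 to 3.33 for Prom1 (brighter probe), 3.10 to 3.49 for Cd24, 2.64 to 2.98 for Elf3 and 3.35 to 3.88 for Ggt1. The highest adjusted p among these was 0.0468, for Epcam without normal array 3. The 8 probes called with all spots kept became 4 when marked spots were left out, since 4 were tested, and these 4 became 8 with all spots kept. With marked spots left out, leaving out 1 array gave 2 to 4 called probes (2 without fibrosis array 1 or 2), every one that could be tested. With the slide row as a block, the difference is that of fibrosis array 1 alone against the 3 normal arrays, which share its row. The rises were then 2.76 (Elf3 and Sox4) to 4.39 (Spp1), and Epcam stood at 3.33. Slide row and group cannot be told apart for fibrosis arrays 2 and 3. The macrophage markers that rose numbered 7 with array weights, against 3, and fewer with the slide row as a block. No paired analysis was possible because the replicate numbers only name arrays. The planned normexp on mean signals was not run, as only median signals were at hand. Normexp on median signals, and every alternative for the gene lists, were chosen after seeing the data, as were the scaling checks of list medians.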
